A study of Mus musculus with 16 samples.

Results

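Transcripts of 10 members of the Serpina family were followed in mouse liver, of the 50559 gene symbols in the table. Serpina12 and Serpina4-ps1 were chosen by the large changes of their levels between the groups in these same libraries. The other 8, Serpina1a to Serpina1e, Serpina3k, Serpina3m and Serpina3n, were added by family name. All 10 had enough counts to enter the test across genes, but Serpina12 and Serpina4-ps1 are given here without a test, since their change was the reason for listing them.

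Serpins are secreted or intracellular proteins that trap proteases. A flexible segment near the carboxyl end, the reactive centre loop, is cleaved by the protease, after which the serpin snaps into a new shape and holds the enzyme in a covalent complex. In the liver, Serpina1 genes encode alpha-1 antitrypsin, an inhibitor of neutrophil elastase that is among the most abundant plasma proteins, and the Serpina3 genes are mouse relatives of alpha-1 antichymotrypsin. Serpina12 encodes vaspin, a serpin first described in visceral adipose tissue that inhibits kallikrein 7.

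The study asked how lowering ketohexokinase (Khk), the first enzyme of fructose breakdown, compares with blocking its kinase activity in mice on a high-fat diet. RNA was taken from livers of male C57BL/6J mice and sequenced in 16 libraries, 4 for each of 4 groups, with totals that ran from 24317111 to 35820234 counts. Mice were 6 weeks of age at the start and spent 10 weeks on diet, with treatment from week 6 for the last 4 weeks. All mice received siRNA every 2 weeks and a methylcellulose gavage. The LFD group, whose diet the labels name as chow, and the HFD group received luciferase control siRNA at 10 mg/kg and plain methylcellulose. The HFD + siRNA group was instead injected with siRNA against Khk at 20 mg/kg, coupled to N-acetylgalactosamine, a sugar that directs it to hepatocytes. In the HFD + Inhib group, the luciferase siRNA at 10 mg/kg was combined with the inhibitor PF-06835919 at 15 mg/kg in the gavage, which reaches the whole animal. The siRNA dose therefore differed between HFD + siRNA and the other groups. Mice were injected with saline or insulin shortly before the liver was taken, and the labels do not say which library had which, so its part in any difference was not tested. Levels are given as CPM, that is counts relative to the TMM-scaled library total, and differences as log2 fold changes of edgeR's quasi-likelihood fit with Benjamini-Hochberg adjusted p-values over 18335 genes. The labels number the libraries of a group from 1 to 4 without saying more about their origin, so the p-values measure the spread between these samples.

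The 5 Serpina1 genes are near copies of each other, and the stretch in which they differ most is shown here because it helps decide which protease each protein can trap. Over 1242 aligned coding bases of the GENCODE M21 transcripts, pairs of the 5 genes were 96.3% to 98.5% identical. The window of 60 bases with the most differences began at aligned base 1101 and ended at 1160, 82 bases before the end of the coding sequence, and it encodes part of the reactive centre loop. Capitals mark the 18 positions in this window at which at least 1 of the 5 genes differs.
Serpina1a: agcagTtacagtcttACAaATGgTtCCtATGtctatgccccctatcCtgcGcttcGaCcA
Serpina1b: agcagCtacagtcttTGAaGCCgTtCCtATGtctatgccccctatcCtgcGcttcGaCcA
Serpina1c: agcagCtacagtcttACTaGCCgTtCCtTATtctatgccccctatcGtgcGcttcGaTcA
Serpina1d: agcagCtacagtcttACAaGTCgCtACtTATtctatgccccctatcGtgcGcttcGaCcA
Serpina1e: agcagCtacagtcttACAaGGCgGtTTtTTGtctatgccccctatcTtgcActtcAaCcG
Serpina1e had 24 coding positions at which it alone differed from the other 4, the highest number, compared with 19 for Serpina1d, 17 for Serpina1b, 7 for Serpina1c and 6 for Serpina1a. Because reads from the shared stretches can be divided between paralogs in error, the single levels of Serpina1a to Serpina1e are less certain than their sum. Of all words of 50 bases in the transcripts, 74.2% of those of Serpina1c, 57.6% of those of Serpina1a and 50.9% of those of Serpina1d also occurred in another gene, compared with 34.6% for Serpina1e and 29.5% for Serpina1b. The share was 19.1% for Serpina3m, 14.0% for Serpina3k and 6.9% for Serpina3n, and it was 0.0% for Serpina12 and Serpina4-ps1.

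The promoters of Serpina1e and Serpina1b are shown because they are nearly identical while the fitted log2 fold changes for HFD versus LFD, given below with their errors, were -2.84 and -0.20. The difference between the genes was not tested. The sequences are from RefSeq, build GRCm38.p6, minus strand, at chr12:103956960-103957147 for Serpina1e and chr12:103738200-103738389 for Serpina1b. Capitals mark the bases that differ between them.
Serpina1e: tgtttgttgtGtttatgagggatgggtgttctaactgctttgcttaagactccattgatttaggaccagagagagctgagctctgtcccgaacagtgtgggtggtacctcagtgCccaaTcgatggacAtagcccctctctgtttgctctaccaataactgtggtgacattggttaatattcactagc
Serpina1b: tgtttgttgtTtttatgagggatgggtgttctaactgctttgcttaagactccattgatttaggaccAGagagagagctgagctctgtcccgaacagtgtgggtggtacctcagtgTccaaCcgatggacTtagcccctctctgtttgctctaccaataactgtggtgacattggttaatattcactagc
Over the 198 aligned bases of the 2 promoters, 98.0% were identical. This was the highest share among the 10 pairs of Serpina1 genes, each over its own aligned bases. Over a stretch of 191 alignment columns, Serpina1b and Serpina1e differed at 6 columns, and Serpina1a and Serpina1c at 5. The run GTTAATATTCAC, which resembles a binding site of the liver factor HNF1 and was read from these promoters after they had been seen, occurred in the promoters of all 5 Serpina1 genes and in 5 of 32851 mouse promoters of the same length in all (0.02%). It lay 78 to 67 bases before the annotated start of Serpina1e and 26 to 15 bases before that of Serpina1b. The promoter of Serpina12, which had the lowest fitted value of the 10 in HFD + Inhib versus HFD, is shown beside them (GRCm38.p6, minus strand, chr12:104044444-104044693, the 250 bases before the start).
Serpina12: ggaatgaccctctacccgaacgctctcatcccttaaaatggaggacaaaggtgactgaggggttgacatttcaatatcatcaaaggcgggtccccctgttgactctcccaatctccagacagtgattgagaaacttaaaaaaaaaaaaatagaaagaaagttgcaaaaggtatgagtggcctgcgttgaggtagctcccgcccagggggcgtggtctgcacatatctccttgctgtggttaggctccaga
It held none of the other 5 motifs searched on both strands. They were TTCNNNGAA for STAT factors, found in 7.02% of all promoters, CAAAGTCCA for HNF4 (0.38%), TTGCNNCAA for C/EBP (1.74%), AGGTCANAGGTCA for PPAR (0.03%) and TATAAA (12.37%). None of the 7 members with a promoter in the table held any of them, which says only that these letters were not in this window.

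Khk served as a check of the labels. Its level was 266 ± 59.9 CPM in LFD (SD, n = 4 in every group) and 264 ± 39.8 in HFD, and it was 12.7 ± 3.85 in HFD + siRNA, where the 4 libraries lay between 9.14 and 18.1. In HFD + Inhib it was 120 ± 24.1 CPM. Relative to HFD, Khk changed by -4.38 on the log2 scale with siRNA (SE 0.23, edgeR adjusted p = 1.9e-08) and by -1.14 with the inhibitor (SE 0.20, adjusted p = 0.00075). The tissue also carried its label: the 10 hepatocyte markers, led by albumin (Alb), summed to 92500 ± 6420 CPM in LFD, 85000 ± 8010 in HFD, 89600 ± 5950 with siRNA and 59500 ± 1040 with the inhibitor. The hepatocyte sum was thus lowest in the group in which most Serpina transcripts were lowest, and its part in their levels was not tested. Most of its fall was that of Alb, from 51000 CPM in HFD to 29900 with the inhibitor. Of the 10 markers, 4 were lower with the inhibitor than in HFD, as were 8.42% of all tested genes. The other 6 were not called, with log2 fold changes from -0.18 to 0.37, and the median over the list was -0.10. In whole liver RNA, fewer cells of a type and less RNA per cell cannot be told apart.

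Vaspin mRNA was present in liver at moderate levels in 3 groups and was almost gone in the fourth. Serpina12 was at 5.58, 29.7, 28.7 and 37.3 CPM in the LFD libraries and at 31.5, 64.0, 22.9 and 26.5 CPM in the HFD libraries. It was at 4.18, 64.1, 21.1 and 30.5 CPM in the HFD + siRNA libraries. In HFD + Inhib the 4 libraries held 0.247, 0.233, 0.907 and 0.330 CPM, from 6 to 28 counts each. The LFD, HFD and HFD + siRNA groups overlapped, with LFD replicate 1 and HFD + siRNA replicate 1 far below the rest of their groups, and every HFD + Inhib library was below every other library.

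The mean of Serpina12 was 36.3 ± 18.8 CPM in HFD and 0.429 ± 0.321 in HFD + Inhib, 84.5-fold lower. The fitted log2 fold change was -6.36 (SE 0.86) relative to HFD and -6.08 (SE 0.86) relative to HFD + siRNA. Without HFD + Inhib replicate 3, the highest library of that group, these values were -7.03 and -6.75, and without HFD + siRNA replicate 2 the second was -5.38. It was 0.52 (SE 0.60) for HFD versus LFD and -0.28 (SE 0.60) for HFD + siRNA versus HFD, both smaller than their standard errors. These are descriptions, since the gene was listed for this change. Vaspin is best known from adipose tissue, so markers of fat cells were checked: of the 8 listed, the defining genes Adipoq, Lep, Retn and Plin1 did not exceed a mean of 0.177 CPM in any group and had too few counts for the test. The summed level of the 8 markers was 16.8 ± 3.42 CPM in LFD, 19.5 ± 2.77 in HFD, 25.5 ± 4.81 with siRNA and 76.8 ± 25.7 with the inhibitor, highest where Serpina12 was lowest. The most abundant of them was Lipe, a lipase also made by other cells, in LFD, in HFD and with siRNA, and Cfd, adipsin, with the inhibitor. Cfd, a complement protease that fat cells secrete, rose from 2.59 CPM in HFD to 34.5 in HFD + Inhib (log2 fold change 3.68, SE 0.58, adjusted p = 0.00031). Cidea, a lipid droplet protein, rose from 0.461 to 16.6 CPM (log2 fold change 5.03, SE 0.58, adjusted p = 1.7e-05). The part of fat cells in the level of Serpina12 was not tested.

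**Figure D1:**
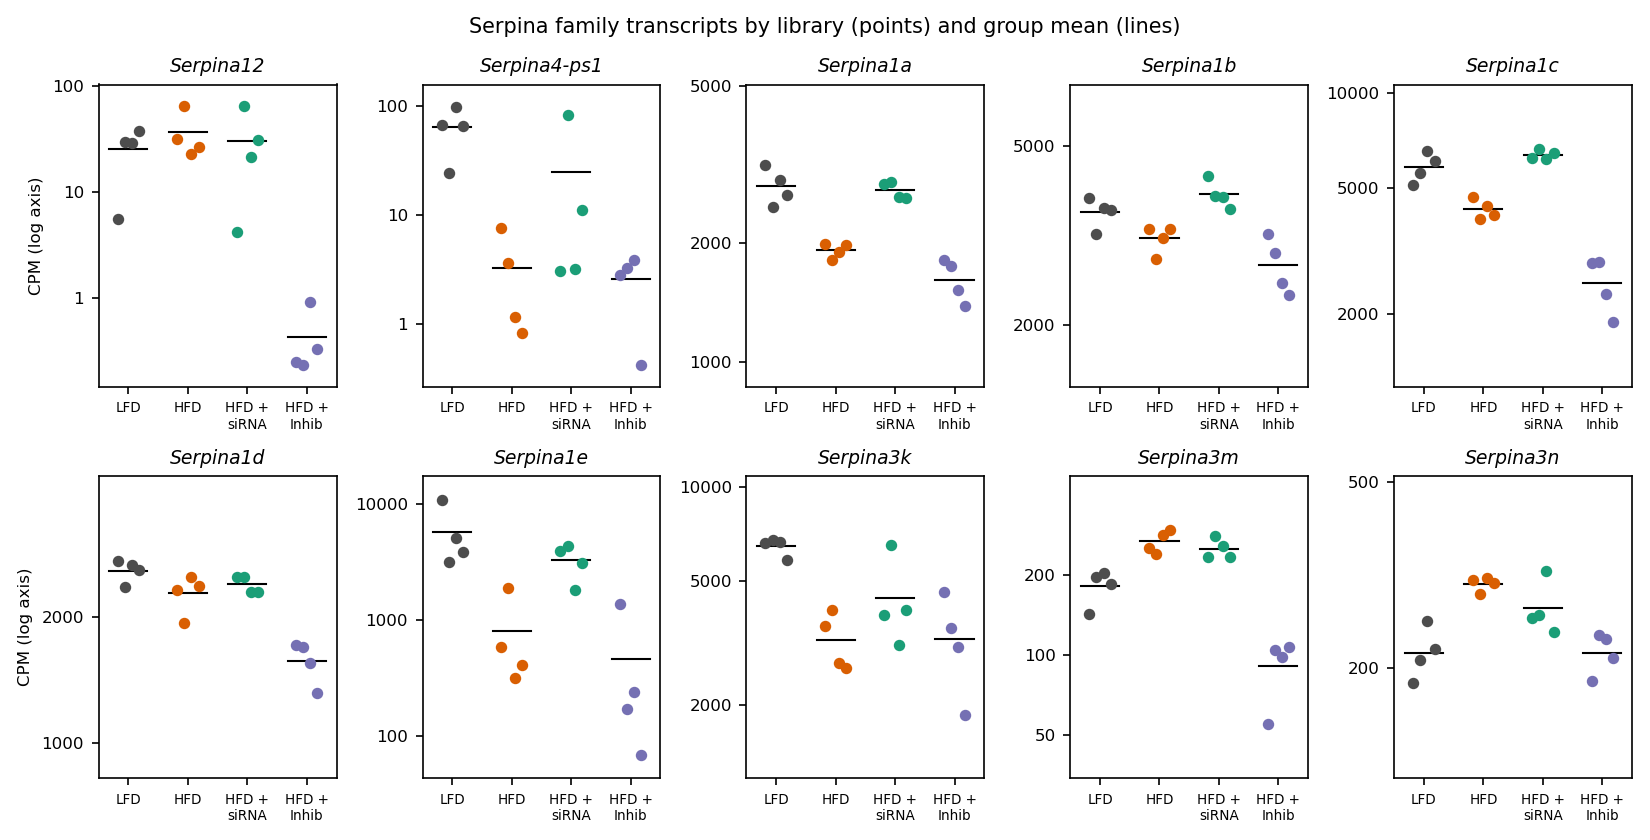
CPM (log axis) of the 10 Serpina transcripts in each of the 16 libraries, 1 panel a gene; points are libraries and lines are means of 4 libraries. Serpina12 lay between 0.233 and 0.907 CPM in HFD + Inhib and above 4 CPM in every other library, whereas Serpina4-ps1 and Serpina1e were highest in LFD.

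Serpina4-ps1, a transcribed pseudogene next to Serpina12 in the order of Serpina genes, had another pattern, in that the HFD group itself was low. Its levels were 66.2, 23.9, 97.5 and 64.3 CPM in LFD and 7.46, 3.60, 1.14 and 0.821 CPM in HFD. In HFD + siRNA they were 3.04, 81.1, 3.14 and 10.9 CPM, and in HFD + Inhib 2.76, 3.23, 3.79 and 0.420 CPM. All HFD and HFD + Inhib libraries were below all LFD libraries, whereas HFD + siRNA replicate 2 reached the LFD range and the other 3 libraries of that group did not. The mean fell from 63.0 ± 30.2 CPM in LFD to 3.25 ± 3.06 in HFD, 19.4-fold, with a fitted log2 fold change of -4.25 (SE 0.99), or -5.01 without HFD replicate 1. For HFD + siRNA versus HFD the fitted value was 2.88 (SE 0.95), and it was 0.77 without HFD + siRNA replicate 2 and 3.65 without HFD replicate 1. For HFD + Inhib versus HFD it was -0.39 (SE 1.0), with overlapping groups. No test is given for these values either.

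The 5 Serpina1 genes together made up 2.06% of the scaled library in LFD, 1.24% in HFD, 1.87% with siRNA and 0.887% with the inhibitor. Their summed level was 20600 ± 3850 CPM in LFD, 12400 ± 313 in HFD, 18700 ± 1590 with siRNA and 8870 ± 1730 with the inhibitor. The sum did not overlap between the groups in any of the 4 comparisons: HFD was below LFD, HFD + siRNA was above HFD, and HFD + Inhib was below both. As a single feature, the sum had a fitted log2 fold change of -0.73 (SE 0.15) for HFD versus LFD, 0.59 (SE 0.15) for HFD + siRNA versus HFD, -0.49 (SE 0.15) for HFD + Inhib versus HFD and -1.08 (SE 0.15) for HFD + Inhib versus HFD + siRNA. The first 3 comparisons share the HFD libraries, and the values are set side by side only.

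Serpina1e had the largest difference in mean CPM of the 5 genes in HFD versus LFD and in HFD + siRNA versus HFD, whereas with the inhibitor Serpina1c, at 4310 CPM in HFD and 2510 with the inhibitor, differed more. It was at 10920, 3155, 5106 and 3885 CPM in LFD and at 586, 1901, 315 and 413 CPM in HFD. In HFD + siRNA it was at 3911, 4373, 1812 and 3113 CPM, and in HFD + Inhib at 1378, 170, 238 and 69.2 CPM. All LFD libraries were above all HFD libraries, and all HFD + siRNA libraries were above all HFD + Inhib libraries, whereas HFD replicate 2 overlapped HFD + siRNA. Serpina1e made up 26.6% ± 10.8 of the Serpina1 sum in LFD, 6.44% ± 5.92 in HFD, 17.3% ± 4.72 with siRNA and 4.57% ± 5.37 with the inhibitor. Single libraries raised group means: without LFD replicate 1, at 42.4%, the share in LFD was 21.3% ± 2.88. Without HFD replicate 2, at 15.2%, the share in HFD was 3.51% ± 0.995. Without HFD + Inhib replicate 1, at 12.5%, the share with the inhibitor was 1.91% ± 0.982 (n = 3 each).

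**Figure D2:**
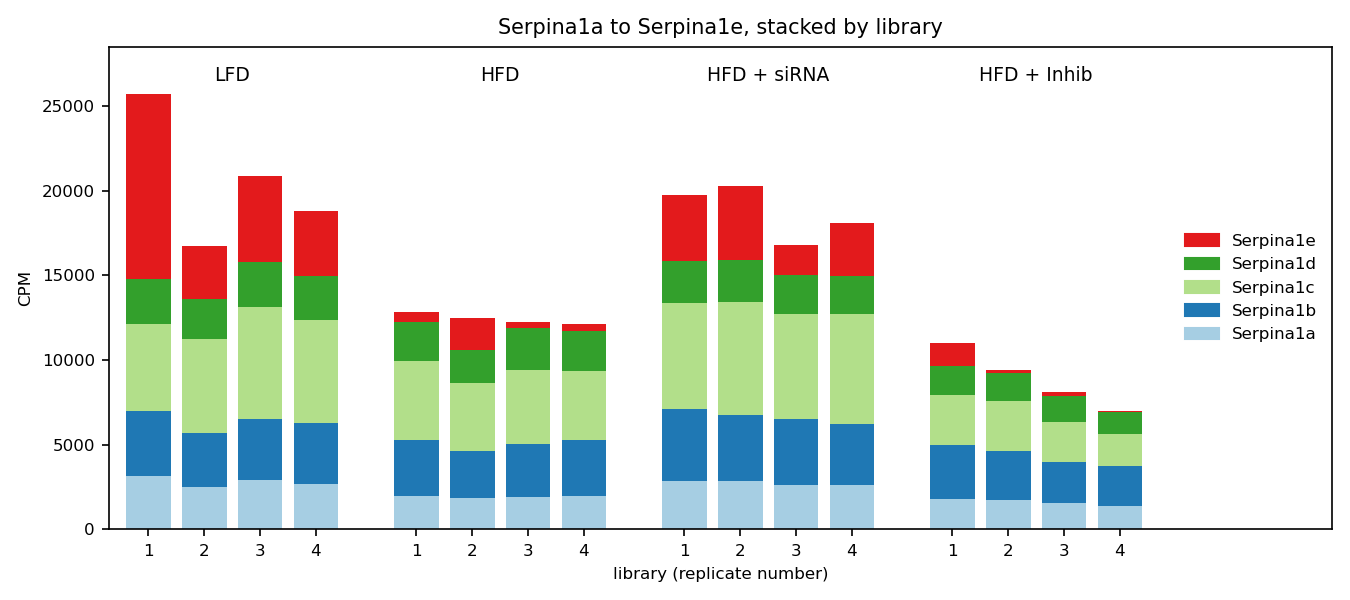
Levels in CPM of Serpina1a to Serpina1e stacked for each library, with the replicate number below each bar. The Serpina1e segment was largest in LFD, where it was 42.4% of the sum in replicate 1, and smallest in HFD + Inhib, where it was 0.992% of the sum in replicate 4.

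Of the 8 members not chosen for their change, 2 were higher and 4 lower in HFD than in LFD by edgeR at an adjusted p under 0.05, which 18.4% of all tested genes passed in either direction (9.58% higher, 8.80% lower). Serpina1e fell by 2.84 on the log2 scale (SE 0.79, adjusted p = 0.021) and Serpina3k by 1.0 (SE 0.25, adjusted p = 0.012). Serpina1a fell by 0.54 (SE 0.11, adjusted p = 0.0032) and Serpina1c by 0.44 (SE 0.13, adjusted p = 0.030). Serpina3m and Serpina3n moved the other way, with log2 fold changes of 0.55 (SE 0.17, adjusted p = 0.030) and 0.49 (SE 0.11, adjusted p = 0.0073). Serpina1b and Serpina1d did not pass, at -0.20 (SE 0.11, adjusted p = 0.24) and -0.18 (SE 0.11, adjusted p = 0.26). The 6 called members also had no overlap between HFD and LFD, as had 20.4% of all tested genes (10.7% higher, 9.69% lower). The median over the 8 was -0.32, compared with -0.01 over all tested genes.

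The calls of Serpina1a, Serpina3k and Serpina3n held when any single library was left out of this comparison. The other 3 calls were near the threshold, and each was lost when any 1 of several libraries was left out. For Serpina1e, the adjusted p was 0.067 without LFD replicate 1 and 0.053, 0.065 and 0.064 without HFD replicates 1, 3 and 4, and without HFD replicate 2 the log2 fold change was -3.72 (adjusted p = 0.0097). For Serpina1c it was 0.11 and 0.056 without LFD replicates 3 and 4, 0.070, 0.064 and 0.084 without HFD replicates 2, 3 and 4, and 0.067 with offsets for GC content and length. For Serpina3m it was 0.095 without LFD replicate 1 and 0.080 and 0.081 without HFD replicates 3 and 4. All these p-values are edgeR's, and the direction held each time.

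With Khk siRNA, 2 of the 8 members rose relative to HFD and none fell, whereas 11.7% of all tested genes were called in either direction, 5.20% higher and 6.55% lower. Serpina1c rose from 4310 ± 303 to 6400 ± 210 CPM (log2 fold change 0.57, SE 0.13, adjusted p = 0.013) and Serpina1a from 1920 ± 80.2 to 2720 ± 135 CPM (0.51, SE 0.11, adjusted p = 0.0071). Serpina1b had 3120 ± 219 CPM in HFD and 3920 ± 279 in HFD + siRNA, without overlap, at 0.33 (SE 0.11, adjusted p = 0.072), and DESeq2 called it (0.32, adjusted p = 0.020). Groups without overlap were found for 3 of the 8 members, all higher, and for 20.6% of all tested genes in this comparison (10.1% higher). Serpina1e was at 2.04 (SE 0.76, edgeR adjusted p = 0.094). Without HFD replicate 2, the library with the highest Serpina1e of that group, it was 2.91 (adjusted p = 0.033). Its adjusted p was 0.030 when only the HFD and HFD + siRNA libraries were fitted and 0.047 with the replicate number as a block. Serpina1d (0.07), Serpina3k (0.44), Serpina3m (-0.09) and Serpina3n (-0.17) had adjusted p-values of 0.72, 0.27, 0.78 and 0.34.

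With the inhibitor, 4 of the 8 members fell relative to HFD and none rose, whereas 18.2% of all tested genes were called, 9.80% higher and 8.42% lower. The members called were Serpina3m, Serpina1c, Serpina1d and Serpina3n. Serpina3m showed the largest change of these, from 253, 239, 283 and 294 CPM in the HFD libraries to 54.9, 104, 98.3 and 107 CPM in the HFD + Inhib libraries, with no overlap (log2 fold change -1.55, SE 0.17, adjusted p = 1.1e-05). Serpina1c fell by 0.78 (SE 0.13, adjusted p = 0.00068), Serpina1d by 0.54 (SE 0.11, adjusted p = 0.0023) and Serpina3n by 0.49 (SE 0.11, adjusted p = 0.0053). These 4 calls held under each library left out and under all other settings run for single genes. Groups without overlap were found for 5 of the 8 members and for 23.3% of all tested genes.

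Serpina1e, with a mean of 464 ± 613 CPM in HFD + Inhib and 804 ± 740 in HFD, was at -0.79 (SE 0.74, adjusted p = 0.51), and its value turned on 2 libraries. Without HFD + Inhib replicate 1 it was -2.34 (adjusted p = 0.021), and without HFD replicate 2 it was 0.08. Serpina3k was at 3260 ± 1130 CPM with the inhibitor and 3240 ± 684 in HFD (0.01, SE 0.25, adjusted p = 0.99). Serpina1a (-0.25, adjusted p = 0.12) and Serpina1b (-0.20, adjusted p = 0.26) did not pass by edgeR either, and Serpina1a passed only with the GC and length offsets (-0.29, adjusted p = 0.032).

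Set against each other, the 2 treatments differed in 7 of the 8 members, all lower in HFD + Inhib than in HFD + siRNA, whereas 33.8% of all tested genes differed and 16.6% were lower. The difference for Serpina1e was -2.83 (SE 0.79, adjusted p = 0.011), and it was -4.36 (adjusted p = 0.00034) without HFD + Inhib replicate 1 and between -3.02 and -2.47 without each of the other libraries. The differences were -1.46 for Serpina3m (SE 0.17, adjusted p = 1.2e-05) and -1.35 for Serpina1c (SE 0.14, adjusted p = 2.5e-06). Serpina1a (-0.76), Serpina1d (-0.61) and Serpina1b (-0.52) had adjusted p-values of 7e-05, 0.00047 and 0.0023. Serpina3n was at -0.32 (SE 0.11, adjusted p = 0.034). Its adjusted p was 0.052, 0.054 and 0.16 without HFD + siRNA replicates 1, 2 and 3, 0.12 and 0.081 without HFD + Inhib replicates 1 and 4, 0.11 with GC and length offsets, 0.071 without the filter on low counts and 0.062 when only these groups were fitted. Serpina3k did not pass the test (-0.43, SE 0.25, adjusted p = 0.19). Groups without overlap were found for 7 of the 8 members and for 32.4% of all tested genes.

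**Figure D3:**
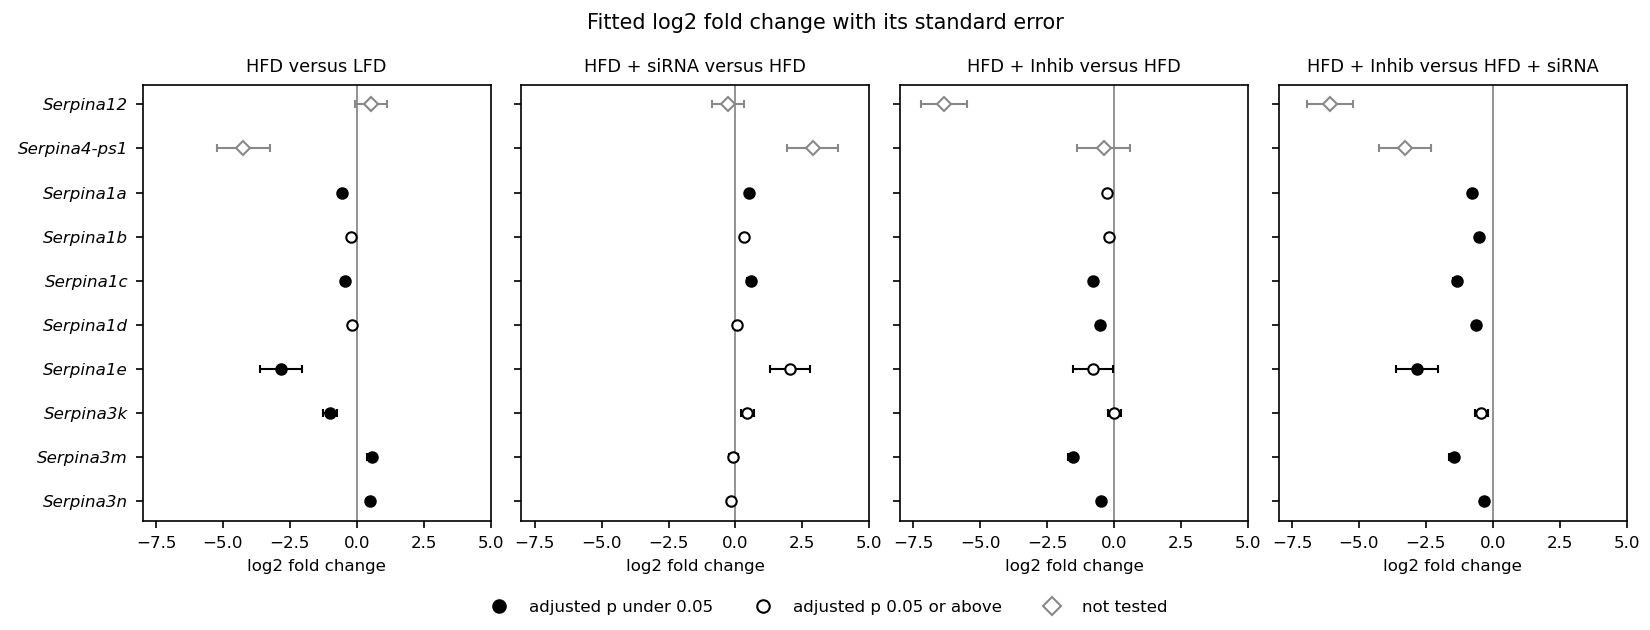
Fitted log2 fold changes (points) with their standard errors (bars) of the 10 Serpina transcripts in 4 comparisons; filled points have an edgeR adjusted p under 0.05, open points do not, and grey diamonds were not tested. For HFD + Inhib versus HFD + siRNA, 7 filled points lie below 0, and Serpina3k is open at -0.43.

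The Serpina3 genes did not move as a block. Serpina3k, named contrapsin and an inhibitor of trypsin-like enzymes, was the most abundant of the 3, at 6628, 6797, 6697 and 5853 CPM in LFD and 3574, 4044, 2723 and 2623 CPM in HFD, without overlap. It was at 3897, 6547, 3119 and 4046 CPM in HFD + siRNA, where replicate 2 alone reached the LFD range, and at 4598, 3525, 3065 and 1859 CPM in HFD + Inhib. Serpina3m was at 182 ± 27.5 CPM in LFD, 267 ± 25.4 in HFD, 251 ± 22.0 with siRNA and 91.0 ± 24.3 with the inhibitor. Serpina3n, an inhibitor of granzyme B and elastase that rises in inflammation, was at 216 ± 27.7, 303 ± 10.4, 269 ± 36.3 and 216 ± 22.0 CPM in the same order. Summed over the 14 Serpina3 symbols, the log2 fold change for HFD versus LFD was -0.85 (SE 0.22), which follows Serpina3k, so the rise of Serpina3m and Serpina3n does not show in the sum.

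Levels were also divided by the length of each gene's longest GENCODE M21 transcript. Per kilobase, Serpina1c ranked first among the 10 in every group, with 4300 ± 457 CPM per kilobase in LFD, 3170 ± 222 in HFD, 4700 ± 155 with siRNA and 1840 ± 369 with the inhibitor. With the inhibitor it overlapped the next gene, Serpina3k. By mean CPM, Serpina1c was highest in HFD and with siRNA only. Serpina3k was above it in LFD (6490 and 5850), and Serpina3k (3260) and Serpina1b (2720) were above it with the inhibitor (2510). Serpina1e took the second place in LFD, at 3660 ± 2240, overlapping Serpina1c and Serpina3k, and the sixth in HFD, at 510 ± 470, and in HFD + Inhib, at 294 ± 389. Serpina3m and Serpina3n overlapped each other in LFD, in HFD and with siRNA, whereas with the inhibitor Serpina3n (105 ± 10.7) lay above Serpina3m (54.8 ± 14.7). The lowest place was held by Serpina12 in LFD (6.86 ± 3.71 CPM per kilobase), by Serpina4-ps1 in HFD (2.53 ± 2.38) and by Serpina12 in HFD + Inhib (0.116 ± 0.087). In HFD + siRNA, Serpina12 (8.12 ± 6.83) and Serpina4-ps1 (19.1 ± 29.4) overlapped.

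The 10 genes lie in a stretch of chromosome 12 with 28 Serpina genes among 41 RefSeq genes. In the order of the Serpina genes alone, Serpina12 and Serpina4-ps1 are neighbours. Serpina5 follows on the far side, with Serpina9, Serpina11 and then the Serpina1 genes on the near side. Relative to HFD, the inhibitor group had a fitted log2 fold change of -6.36 for Serpina12 and -0.39 for Serpina4-ps1, the neighbours chosen for their changes. Serpina11 was lower in HFD than in LFD (-0.77, adjusted p = 0.0041) and lower again in HFD + Inhib than in HFD (-0.77, SE 0.16, adjusted p = 0.0030), with means of 48.0 CPM in LFD, 28.1 in HFD, 32.4 with siRNA and 16.6 with the inhibitor. Serpina9, known from germinal centre B cells, held 61, 10, 25 and 41 counts in LFD, 14, 1, 1 and 1 in HFD, 17, 32, 11 and 15 in HFD + siRNA, and 1 or 0 in the HFD + Inhib libraries. It was called lower in HFD than in LFD (edgeR adjusted p = 0.0095) and lower in HFD + Inhib than in HFD + siRNA (adjusted p = 0.0033). No fold is printed for either, since the HFD mean rested on replicate 1 and no HFD + Inhib library held more than 1 count. The plot of Serpina genes along chromosome 12 draws the fitted HFD versus LFD value of Serpina9. That point rests on the same HFD mean, so its size is not read.

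**Figure D4:**
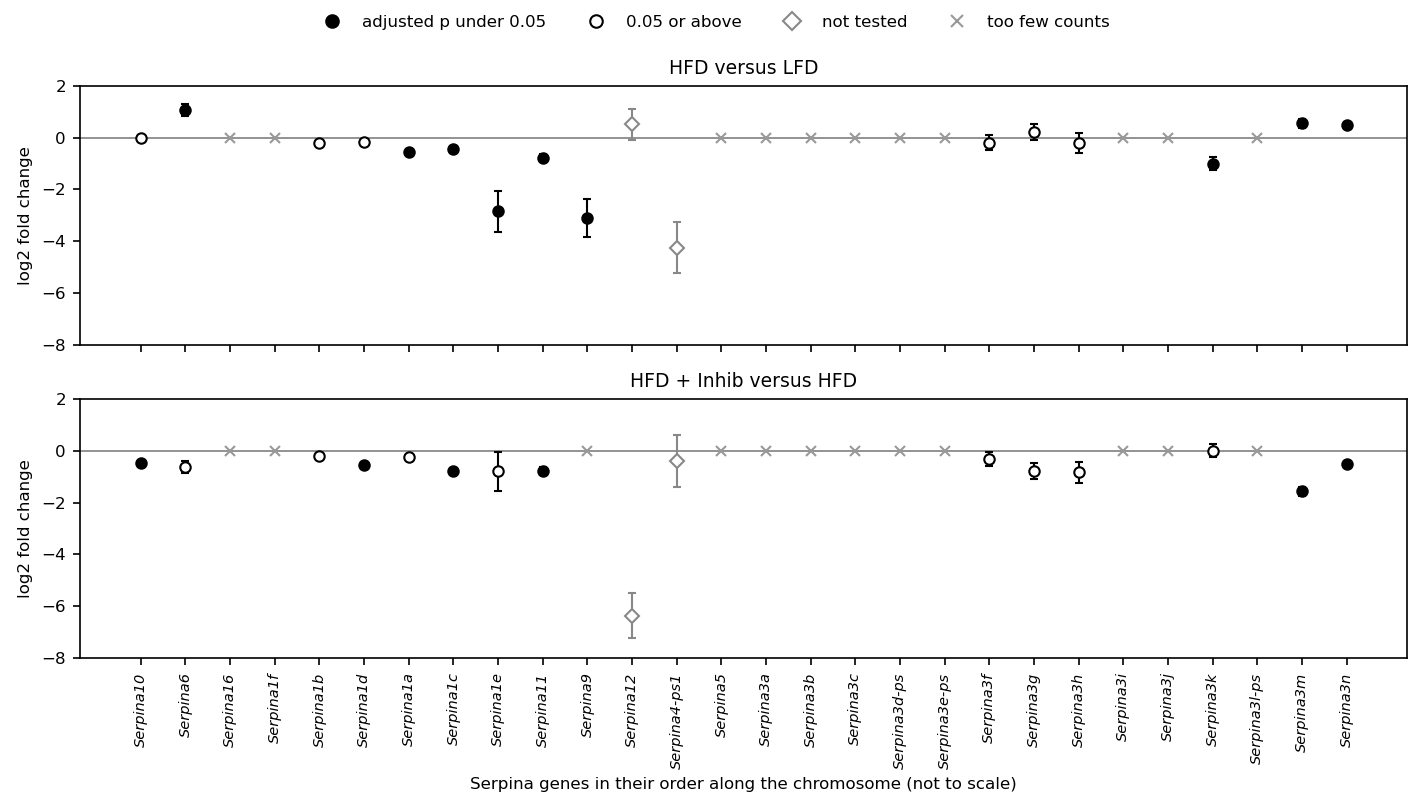
Fitted log2 fold change with its standard error for Serpina genes in their order along chromosome 12, for HFD versus LFD (top) and HFD + Inhib versus HFD (bottom); filled points have an edgeR adjusted p under 0.05, grey diamonds were not tested, and crosses on the 0 line mark genes with too few counts, which have no value. Serpina12 stands at -6.36 in the lower panel, while Serpina4-ps1 beside it stands at -0.39.

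Of the 20 other genes listed as Serpina relatives, 9 were tested. In HFD versus LFD 1 was higher and 2 were lower, and with the inhibitor 1 was higher and 3 were lower than in HFD. Over all tested genes, 9.58% were higher and 8.80% lower with the diet and 9.80% higher and 8.42% lower with the inhibitor. With siRNA, 5.20% were higher and 6.55% lower than in HFD. The counts of the lists that follow stand beside the same shares. In HFD + siRNA versus HFD 0 of 9 were called by edgeR, 1 had an unadjusted p under 0.05, and DESeq2 called 1. Between the treatments, 1 was higher and 5 were lower with the inhibitor, where 17.3% of all tested genes were higher and 16.6% lower. Serpina6, corticosteroid-binding globulin, rose from 118 CPM in LFD to 248 in HFD (log2 fold change 1.07, SE 0.23, adjusted p = 0.0057). Serpina7, thyroxine-binding globulin, rose from 53.3 CPM in HFD to 110 in HFD + Inhib (1.04, SE 0.23, adjusted p = 0.0048). Agt, the angiotensinogen gene, which is a serpin by structure, was the most abundant of the list and fell by 0.73 from HFD to HFD + Inhib (518 to 312 CPM, adjusted p = 0.0016). Serpina10, the protein Z-dependent protease inhibitor, fell by 0.48 in the same comparison (124 to 89.0 CPM, adjusted p = 0.0066). Serpina3f, Serpina3g and Serpina3h were tested and not called in any comparison, with means at or below 7.12 CPM. Serpina1f, Serpina3a, Serpina3b, Serpina3c, Serpina3i, Serpina3j, Serpina3e-ps, Serpina3l-ps, Serpina5 and Serpina16 held counts in at least 1 library but were too low to be tested, with no mean above 0.229 CPM.

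Of the 10 listed proteases and partners of Serpina proteins, 4 had too few counts to be tested. Klk7, the kallikrein that vaspin inhibits, and Ctsg, cathepsin G, had 0 counts in all 16 libraries, which allows up to 0.126 CPM in the library with the smallest scaled total. Elane, neutrophil elastase, and Prtn3, proteinase 3, had no mean above 0.237 CPM. Of the other 6, 1 was lower in HFD than in LFD and 3 were lower in HFD + Inhib than in HFD, where 8.80% and 8.42% of all tested genes were lower. In HFD + siRNA versus HFD 0 of 6 were called by edgeR, 1 had an unadjusted p under 0.05, and DESeq2 called 1. Coagulation factor F10 was the call of the diet comparison (-0.37, SE 0.07, adjusted p = 0.0025). Factor F11, a target of several plasma serpins, fell from 59.9 CPM in HFD to 28.8 in HFD + Inhib (-1.06, SE 0.16, adjusted p = 0.00018). The chaperone Hspa5, which handles misfolded alpha-1 antitrypsin in the endoplasmic reticulum, was the most abundant, at 637 CPM in LFD, 587 in HFD, 864 with siRNA and 482 with the inhibitor, and was not called.

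Genes of the acute phase and sex-biased genes, listed as pathways of the liver, were counted as well. Acute phase genes are switched on in hepatocytes by interleukin 6 and related signals. Of 22 tested, none was higher and 10 were lower in HFD + Inhib than in HFD. The median log2 fold change was -0.50 against 0.00 over all genes. In HFD versus LFD 2 were higher and 3 lower. With siRNA 1 was higher and none lower, where 5.20% of all tested genes were higher and 6.55% lower. The lowest call with the inhibitor was Lcn2, lipocalin 2, which fell from 7.53 to 1.82 CPM (-2.06, SE 0.41, adjusted p = 0.00225) after a rise from 1.89 CPM in LFD (1.99, SE 0.41, adjusted p = 0.0042). Itih3, a stabilizer of the extracellular matrix, was the call with siRNA (0.52, SE 0.14, adjusted p = 0.023). Orm1, an orosomucoid, had the lowest call in HFD versus LFD (-0.75, SE 0.13, adjusted p = 0.0012).

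Growth hormone sets the sex bias of many liver genes, through its pulses in males and the factor Stat5b. Of 24 genes listed as growth hormone targets or male-biased, 1 was higher and 12 were lower in HFD than in LFD, with a median of -0.98 against -0.01 over all genes. With siRNA 3 were higher and none lower than in HFD (median 0.53 against 0.02 over all genes). Of all tested genes, 5.20% were higher and 6.55% lower in that comparison. With the inhibitor 3 were higher and 4 lower (median -0.14). The lowest call of the diet was Ugt2b38, a glucuronosyltransferase (6.40 to 0.425 CPM, -3.83, SE 0.90, adjusted p = 0.0086), which was also the highest with siRNA (3.71 CPM, 3.05, SE 0.90, adjusted p = 0.037). Igf1, the main growth hormone target, was the gene that was higher in HFD (0.58, SE 0.12, adjusted p = 0.0045). The highest call with the inhibitor was Cyp4a12b, a fatty acid hydroxylase, at 12.5 CPM in HFD and 326 in HFD + Inhib (4.68, SE 0.54, adjusted p = 1.7e-05), and the lowest was Hsd3b5, a steroid dehydrogenase, at 27.8 and 2.24 CPM (-3.65, SE 0.80, adjusted p = 0.0044). Of 19 genes listed as female-biased, 13 were tested, with 7 higher and none lower in HFD than in LFD. Cyp2b13 was among them, at a mean of 0 CPM in LFD and 1.54 in HFD, for which no fold is given. Cyp2b9 rose from 0.574 CPM in LFD to 115 in HFD (log2 fold change 7.61, edgeR adjusted p = 0.00011). In this list 3 were lower with siRNA than in HFD, as were 6.55% of all tested genes, and 3 were higher with the inhibitor. The latter, Acot3, Cyp4a10 and Cyp4a14, are also in the list of Ppara targets given next.

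Among 20 transcription factors and receptors of the liver, Stat5b fell by 0.53 in HFD versus LFD (SE 0.12, adjusted p = 0.0064), and Il6ra, the interleukin 6 receptor, fell by 1.27 in HFD + Inhib versus HFD (SE 0.18, adjusted p = 0.00014). In all, 1 was higher and 2 lower with the diet, and 4 were lower with the inhibitor. In HFD + siRNA versus HFD 0 of 20 were called by edgeR and 0 by DESeq2, while 5 had an unadjusted p under 0.05. The most abundant, Hnf4a, was at 554 CPM in LFD, 485 in HFD, 553 with siRNA and 419 with the inhibitor and was not called relative to HFD. Ppara, a receptor for fatty acids, rose by 0.81 in HFD versus LFD (SE 0.13, adjusted p = 0.00076). Of 20 listed targets of this receptor, 19 were higher in HFD + Inhib than in HFD, with a median of 2.66. In HFD versus LFD 6 were higher, and with siRNA 3 were lower than in HFD, as were 6.55% of all tested genes. Whether these levels have a part in those of the Serpina genes was not tested.

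The genes whose levels were most like Serpina12 over the 16 libraries were found by Pearson's correlation of log2 CPM among 12599 genes. The closest was Sdr9c7, a short-chain dehydrogenase (r = 0.97), at 57.6 CPM in LFD, 50.2 in HFD, 44.7 with siRNA and 8.49 with the inhibitor. It was followed by C1s1, a complement protease (0.94), Tedc2 (0.94), Ergic1 (0.94) and Gpc4 (0.93). The most opposite were Mccc2, a leucine-breakdown enzyme (-0.96), 5031439G07Rik (-0.94) and Coq4, of coenzyme Q synthesis (-0.94). The 16 points share their 4 groups, with the 4 HFD + Inhib libraries apart from the other 12 for Serpina12, so these values mainly describe the difference of that group. With Spearman's correlation, 3 of the 5 most like genes were kept.

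For Serpina4-ps1, the most like gene by Pearson's correlation was its relative Serpina3k (r = 0.93). It was followed by Gm51937 (0.92), Pdilt, a disulfide isomerase relative (0.92), Nsd3, a histone methyltransferase (0.91), and Nhsl1 (0.91). Spearman's correlation was 0.83 for Serpina3k, the lowest of these genes, and 0.88 to 0.95 for the others. The most opposite were Lmo7 (-0.93), the desmosome gene Dsc2 (-0.92) and Cyp2a22 (-0.89), which was at 1.21 CPM in LFD and 44.7 in HFD. Within the family, the correlation over the same 16 libraries was 0.91 between Serpina1a and Serpina1e, 0.85 between Serpina1e and Serpina3k, 0.88 between Serpina12 and Serpina3m, and 0.45 between Serpina12 and Serpina4-ps1. These values are descriptions of libraries that share groups, and for the Serpina1 genes also reads.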

How the data were processed

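Per gene symbol, the authors deposited unscaled expected counts, and 15.1% of the values are not whole numbers, since reads that match several genes are divided. The submitters' processing notes name STAR, RSEM and mm39; versions and the annotation are not given in the sources used here. The paper names HTG EdgeSeq, a probe assay, which does not match such counts, so the assay is open. Expected counts were rounded to whole numbers. Of 33142 symbols with a count, filterByExpr (minimum count 10, minimum total 15) kept 18335. TMM scaling and edgeR's quasi-likelihood test were applied in 1 fit of 16 libraries by group, with Benjamini-Hochberg adjustment and a threshold of 0.05 (R 4.3.3, edgeR 4.0.16). DESeq2 1.42.0 was an alternative. Library totals ran from 24317111 to 35820234, and the common dispersion was 0.038. Intervals of counting error were not used, since the spread between libraries was larger.

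The members and lists were chosen with earlier results of these data known. Named genes were the 10 members, Khk, the other Serpina genes with a count, from each list the called genes with the highest and lowest log2 fold change in each comparison and the most abundant gene, and for Serpina12 and Serpina4-ps1 the 5 most like and 3 most opposite genes, among those averaging 1 or more in log2 CPM (prior count 2). Not all genes that the rule allows are printed. A few members of lists beside these are given where a count is broken down. Sequences came from RefSeq (GRCm38.p6) and GENCODE M21, and no coordinates of mm39 were used. In simulated data for HFD + Inhib versus HFD with 18071 genes, the test recovered 72 of 100 genes changed by 1 on the log2 scale and 96 of 100 changed by 2, with 10 false calls. The simulated counts were drawn independently, without a trend by GC content, and only genes above 1 CPM were changed. Fold changes in the real data followed GC content, so these numbers describe only the simulated setting. No libraries in a group agreed within counting noise. Other settings tried were DESeq2, its size factors, other filters, a stricter threshold, fewer groups, a replicate block, single libraries left out, summed paralogs and, added after the data had been seen, offsets for GC content and length.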

Additional observations from a re-analysis of the deposited data

Results flagged for a closer look

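The critical value of Dixon's test at 95% was used only as a screen for gaps. Of 40 sets of 4 libraries, 5 held a library far from the other 3. The sets share libraries and, for the Serpina1 genes, reads, so nothing is read from the count, and for Serpina12 and Serpina4-ps1, listed for their levels, the gaps are descriptions. Serpina12 was at 0.907 CPM in HFD + Inhib replicate 3, above 0.330 in the next library. Serpina4-ps1 was at 81.1 CPM in HFD + siRNA replicate 2, where the next library was at 10.9. Serpina1e was at 1900 CPM in HFD replicate 2, with 586 in the next library and a gap only just past the critical value, and at 1380 CPM in HFD + Inhib replicate 1, with 238 in the next. Serpina3m was at 54.9 CPM in HFD + Inhib replicate 1, below 98.3 in the next library. HFD + Inhib replicate 1 thus had the highest Serpina1e and the lowest Serpina3m of its group.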

How the results depend on the processing

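Single genes kept their direction in most settings, and the exceptions were these. Serpina12 for HFD + siRNA versus HFD was 0.15 without HFD replicate 2 and 0.07 without HFD + siRNA replicate 1, within -0.98 to 0.15 over the libraries left out. Serpina4-ps1 for HFD + Inhib versus HFD was 0.37 without HFD replicate 1 (range -0.70 to 0.37), and Serpina1e was 0.08 without HFD replicate 2 (range -2.34 to 0.08). Serpina3k in that comparison was 0.00 with only these groups, -0.01 with the replicate number as a block, -0.05 with GC and length offsets, -0.07 and -0.08 without HFD replicates 3 and 4, and -0.20 and -0.04 without HFD + Inhib replicates 1 and 2 (range -0.20 to 0.20). Serpina1d for HFD + siRNA versus HFD was -0.03 with the offsets. With paralogs summed, Serpina3m and Serpina3n take the value -0.85 in HFD versus LFD and 0.37 in HFD + siRNA versus HFD, and Serpina3k takes -0.10 in HFD + Inhib versus HFD. At an adjusted p under 0.01, 1287, 689, 1733 and 3711 genes were called in HFD versus LFD, HFD + siRNA versus HFD, HFD + Inhib versus HFD and HFD + Inhib versus HFD + siRNA, and 2 and 1 members in the first 2. Without a single library, the genes called ranged over 2001 to 3691, 1100 to 1981, 2532 to 3050 and 4934 to 6251, and the members over 3 to 6, 2 to 3, 4 to 5 and 6 to 7. On raw totals the summed Serpina1 level in HFD was 13200 CPM. Correlations of deviations between libraries of the same replicate number were above 0.1 in 6 of 24 pairs (range -0.132 to 0.336). Libraries of different numbers were not compared, so whether the numbers pair the samples cannot be settled from this. With the number as a block, 3299, 2080, 3341 and 6197 genes and 6, 3, 4 and 7 members were called. Serpina1e was gained in the second comparison (2.16, edgeR adjusted p = 0.047). Serpina12 was dropped where 10 counts in every library were required. Across 8342 genes, log2 fold changes followed GC content, with Spearman's rho of -0.49, 0.46, -0.27 and -0.50 in the 4 comparisons, whereas the members' GC content lay between 48.4% and 52.0%; with the offsets, chosen after seeing the data, 2614, 1659, 3398 and 4744 genes and 5, 2, 5 and 6 members were called. In HFD + Inhib versus HFD, 1602 genes were then higher and 1796 lower, compared with 1796 and 1543 without the offsets. The offsets covered 86.5% of tested genes, and the cause of these shifts was not tested. Depth limits Serpina12 in HFD + Inhib to 6 to 28 counts a library.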

Other observations

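Serpins of other clades were called in both directions. Of 13 tested, 2 were higher and 4 lower in HFD than in LFD, 3 were higher and 1 lower in HFD + siRNA than in HFD, and 3 were higher and 3 lower in HFD + Inhib than in HFD. Of all tested genes, 18.4%, 11.7% and 18.2% were called in these comparisons, in either direction. Serpinc1, antithrombin, was the most abundant, at 1570 CPM in LFD, 1190 in HFD, 1350 with siRNA and 1050 with the inhibitor. Serpinb1a, an inhibitor of neutrophil proteases, rose relative to HFD with siRNA (log2 fold change 1.57, SE 0.47, edgeR adjusted p = 0.039) and with the inhibitor (2.64, SE 0.47, adjusted p = 0.00094). Serpinb8 fell with the inhibitor (-0.94, SE 0.25, adjusted p = 0.017), and Serpinb9, which inhibits granzyme B, fell with siRNA (-0.77, SE 0.21, adjusted p = 0.024).

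Markers of other liver cells were also summed. Of all tested genes, 9.58% were higher in HFD than in LFD. With the inhibitor, 9.80% were higher and 8.42% lower than in HFD. The counts of called markers below stand beside these shares. The 10 markers of Kupffer cells and macrophages summed to 292 CPM in LFD, 280 in HFD, 331 with siRNA and 221 with the inhibitor, and 3 were lower in HFD + Inhib than in HFD. The 9 lymphocyte markers summed to 5.31, 6.03, 6.76 and 2.22 CPM in the same order. Of the 7 that were tested, 4 were lower in HFD + Inhib than in HFD. The 9 markers of stellate cells summed to 385, 476, 506 and 364 CPM, with 2 higher in HFD than in LFD and 3 lower in HFD + Inhib than in HFD. The 8 of endothelium summed to 386, 336, 381 and 326 CPM, with 1, Lyve1, higher in HFD + Inhib than in HFD, and the 6 of bile ducts to 34.2, 38.4, 36.4 and 37.2 CPM, with 1, Spp1, higher in HFD than in LFD. Neutrophil markers summed to no more than 1.10 CPM in any group. The 10 pancreas markers summed to 11.8 CPM in LFD, 15.6 in HFD, 24.6 with siRNA and 5.72 with the inhibitor, and 7 of them did not exceed 3 counts in any library. Most of the sum was Cela1, an elastase and the only one tested, at 9.79, 15.5, 24.4 and 5.24 CPM in the same order. It was called in all 4 comparisons, with log2 fold changes of 0.66 for HFD versus LFD (adjusted p = 0.019), 0.65 with siRNA (adjusted p = 0.026) and -1.57 with the inhibitor (adjusted p = 2.4e-05) relative to HFD, and -2.22 between the treatments (adjusted p = 4.9e-07).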
